A study of Mus musculus with 12 samples.

Results

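DNA methylation in colonic adenomas of double heterozygous mice was compared with that in control adenomas at 14554 CCCGGG sites. These were the autosomal sites with 50 or more reads in each of the 6 libraries, out of 164896 autosomal sites listed for the series. The double heterozygous adenomas (3) had the genotype Tet1+/- TdgN151A/+ ApcMin/+: 1 allele of Tet1 lost and 1 allele of Tdg carrying the N151A substitution. The control adenomas (3) were wild type for Tet1 and Tdg and carried the same ApcMin/+ allele, so every adenoma compared arose in an Apc-Min mouse. All mice were C57BL/6J and were killed at 150 to 160 days of age. The series holds 12 adenomas, and the remaining 6 came from mice without Tet1 (Tet1-/- Tdg+/+ ApcMin/+, 3) and from mice with the Tdg allele alone (Tet1+/+ TdgN151A/+ ApcMin/+, 3). It is not stated if each adenoma came from its own mouse; each p-value therefore speaks only of the variation among these adenomas, which could be partly technical. Each sample was a whole dissected adenoma, so a change in the mixture of cells and a change within cells cannot be told apart.

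The Min allele truncates Apc, a brake on Wnt signalling, and mice that carry it form intestinal adenomas. Tet1 oxidises 5-methylcytosine to 5-hydroxymethylcytosine, 5-formylcytosine and 5-carboxylcytosine. Tdg, a DNA glycosylase, cuts out the last pair of these bases, after which repair puts back an unmethylated cytosine; the N151A substitution lies in its catalytic site and is known to block base excision. Both enzymes therefore act on one route of active demethylation, the first at its start and the second at its end.

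Methylation was read by DREAM (digital restriction enzyme analysis of methylation). SmaI cuts CCCGGG when its central CpG is unmethylated, XmaI then cuts the methylated copies, and the ends left by the 2 enzymes tell the reads apart. The level of a site is the percentage of its reads with the methylated end, adjusted by the authors with spiked standards. Total reads ranged from 12639191 to 17729712 in 5 of the 6 libraries, whereas double heterozygous adenoma 3 had 2349576. The median site had 652 to 916 reads in the 5 deep libraries and 109 in the shallow one. At a level near 50% these depths gave 95% exact binomial (Clopper-Pearson) intervals 6.58 to 7.81 points wide in the deep libraries and 19.5 points wide in double heterozygous adenoma 3, from 39.8% to 59.3%. These intervals cover counting error only, since the reads carry no molecular identifiers. Reads on the Y chromosome showed that all 3 double heterozygous adenomas and control adenoma 1 came from males, and that controls 2 and 3 came from females. The spiked unmethylated standard read 0.44% to 1.16% in the controls and 0.69% to 1.51% in the double heterozygous adenomas, and the methylated one read 98.9% to 99.1% over all 6.

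Methylation was higher in the double heterozygous adenomas, by the most at sites of intermediate level. Averaged over all 14554 sites, the control adenomas stood at 22.4%, 22.0% and 22.5%, and the double heterozygous adenomas at 25.0%, 22.9% and 23.3%. The groups did not overlap, and adenoma 1 stood well above the other double heterozygous ones. The means were 22.3% ± 0.281 and 23.7% ± 1.15 (SD, n = 3 each), a difference of 1.45 points with an exact two-sided permutation p of 0.1, the smallest that 3 against 3 can give. Adjusted over the 5 level measures (all sites and 4 classes of level), it was 0.125, so no level measure could pass 0.05 in this design. Without double heterozygous adenoma 3 the difference was 1.68 points at the same sites, and 1.63 points at the 22176 sites with 50 reads in the other 5 libraries. Without double heterozygous adenoma 1 it fell to 0.794 points, and the groups still did not overlap.

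Sites were then put in 4 classes by their mean level in the 6 adenomas of the other genotypes, which are not part of the comparison. The 2936 sites of 20 to 80% showed the largest shift. They averaged 49.3%, 47.5% and 49.3% in the controls and 57.9%, 51.0% and 52.6% in the double heterozygous adenomas. Every double heterozygous adenoma lay above every control. Control 1, the only male control, stood at 49.3%, and all 3 double heterozygous adenomas were male. With 1 male control, sex and genotype cannot be told apart in the levels, and no level measure was adjusted for sex. The means were 48.7% ± 1.08 and 53.8% ± 3.60 (SD, n = 3 each), a difference of 5.14 points (exact permutation p = 0.1). It was 5.76 points without double heterozygous adenoma 3 and 5.71 points over the 4334 such sites with enough reads in the other 5 libraries. It was 3.11 points without double heterozygous adenoma 1, the only omission that moved it by over 1.5 times. At the same sites the adenomas with the Tdg allele alone averaged 50.9% ± 2.00 and those without Tet1 55.4% ± 5.69.

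In the 1910 sites above 80% the controls averaged 88.3%, 87.2% and 88.0% and the double heterozygous adenomas 90.6%, 89.0% and 88.9%. Here too the groups did not overlap, with a difference of 1.69 points (exact permutation p = 0.1). The size of this difference depended on the classes: with sites sorted by their control mean it was 0.579 points (exact permutation p = 0.6). In the 8539 sites below 5%, the levels were 0.319%, 0.334% and 0.319% in the controls and 0.381%, 0.362% and 0.373% in the double heterozygous adenomas. That is a difference of 0.0479 points without overlap (exact permutation p = 0.1), and of 0.117 points with sites sorted by their control mean. It lies below the level that the unmethylated standard shows. With the raw level in place of the adjusted one, the exact permutation p was 0.2 for this class and for that above 80%, and the groups overlapped.

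The 1169 sites of 5 to 20% did not follow the other classes. The controls averaged 8.72%, 9.31% and 9.76%, and the double heterozygous adenomas 15.4%, 8.65% and 9.66%. Adenoma 1 was far above all the others, while double heterozygous adenomas 2 and 3 lay below or among the controls. The mean difference of 1.99 points (exact permutation p = 0.7) became -0.11 points without adenoma 1. With adenoma 3 left out instead, it was 2.78 points (exact permutation p = 0.5).

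**Figure D1:**
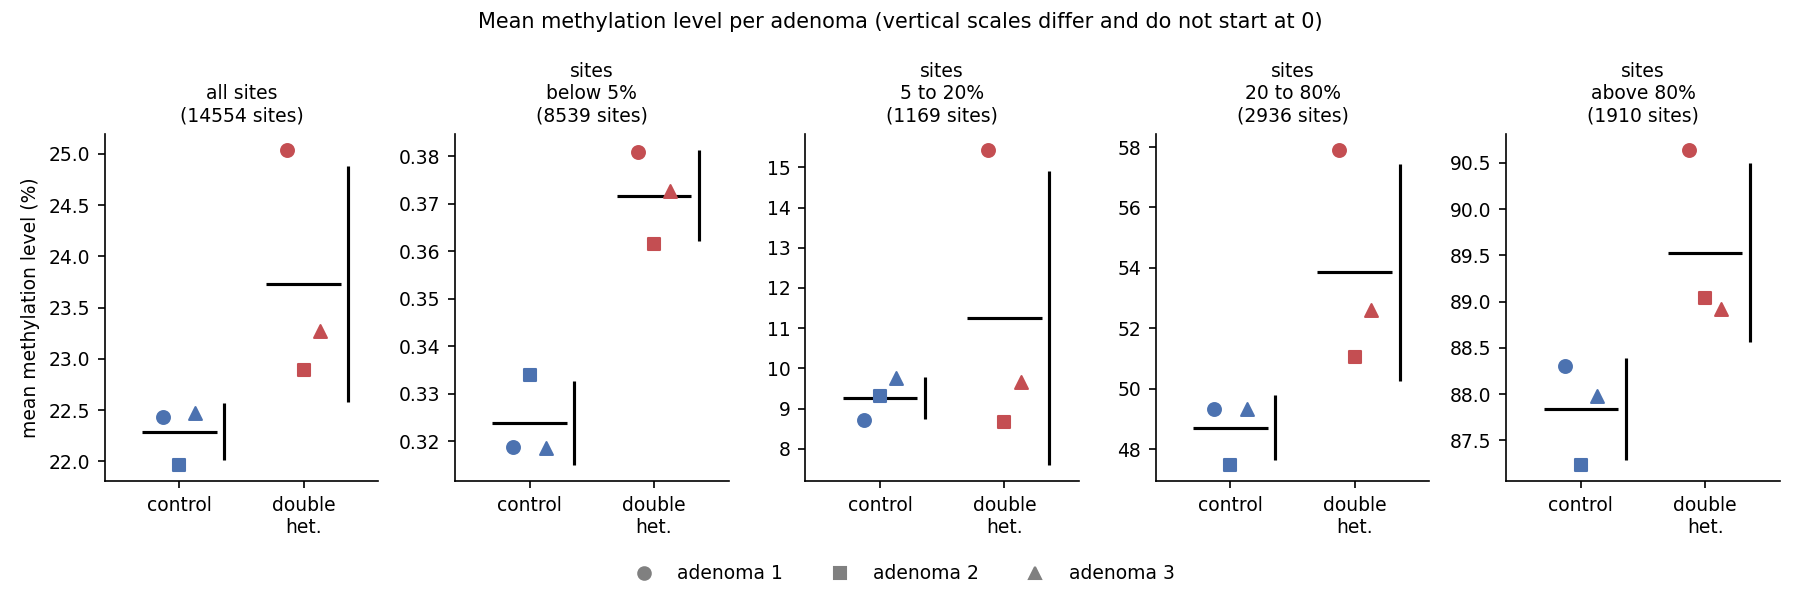
Mean methylation level (%, vertical axes differing between panels and not starting at 0) of each adenoma over all sites and over the 4 classes of level; horizontal lines are means and vertical lines 1 SD of 3 adenomas. The groups are apart in every panel but that of 5 to 20%, where double heterozygous adenoma 1 at 15.4% stands alone.

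Finer bins of level showed where along the scale the shift lay. The difference was 0.227 points for sites of 1 to 5%, 4.76 points for 20 to 40%, 6.02 points for 40 to 60%, 4.83 points for 60 to 80%, 2.49 points for 80 to 90% and 0.899 points for 90 to 100%, and the groups did not overlap in any of these 6 bins. They overlapped in the bins of 0 to 1%, with a difference of 0.0203 points, and 5 to 20%. In the bin of 20 to 40%, double heterozygous adenoma 1 was 10.8 points above the control mean, adenoma 2 was 0.72 points above it and adenoma 3 was 2.70 points above it. In the bin of 60 to 80% the same adenomas were 7.31, 3.25 and 3.93 points above. Adenoma 1 thus had its largest shift at lower levels than the other double heterozygous adenomas, which peaked at 40 to 60% or 60 to 80%. Single sites of the bin of 40 to 60% were higher in the double heterozygous mean in 79.0% of cases, against 61.7% in the bin of 90 to 100%.

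**Figure D2:**
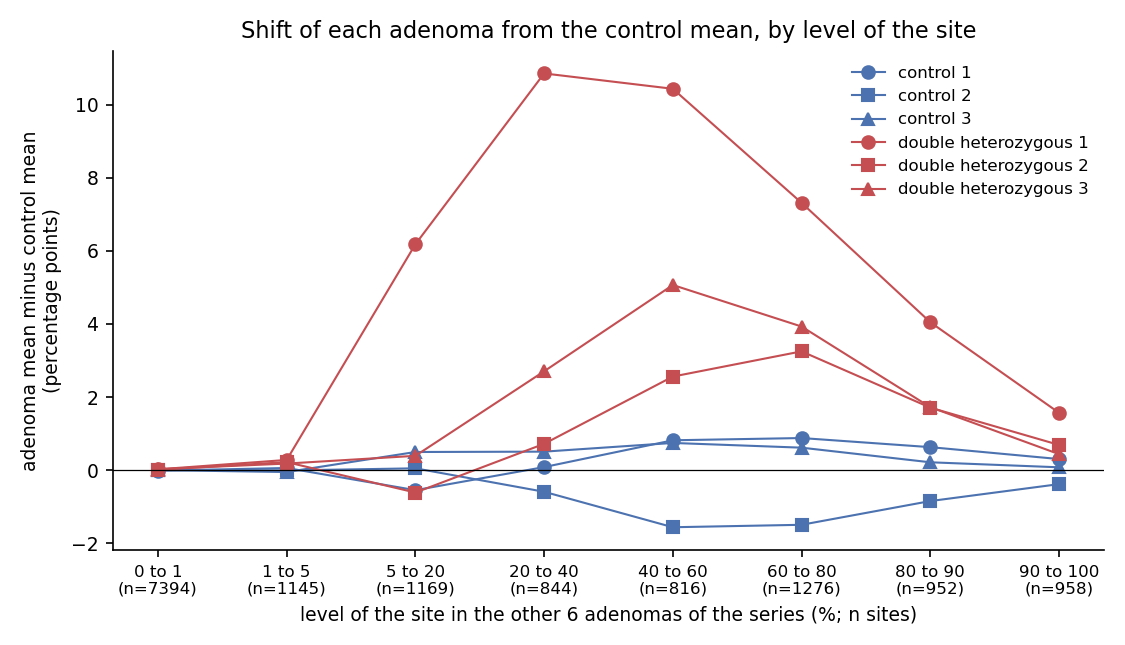
Mean level of each adenoma minus the control mean (percentage points) in 8 bins of site level, set by the other 6 adenomas of the series; each line is 1 adenoma. Double heterozygous adenoma 1 peaks at 10.8 points in the bin of 20 to 40%, and the other double heterozygous adenomas rise above the controls from 20% upward.

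The share of highly methylated sites differed in the same direction. Sites above 80% made up 12.8%, 11.5% and 12.5% of all sites in the controls and 15.2%, 13.3% and 13.1% in the double heterozygous adenomas, with no overlap. Sites of 20 to 80% made up 18.6%, 20.2% and 19.3% in the controls and 20.1%, 18.4% and 19.1% in the double heterozygous adenomas, with overlap. Few of the 14554 sites crossed a fixed limit between the groups. At 38 of the 14554 all 3 double heterozygous adenomas were at or above 50% and all 3 controls below it. The reverse held at 2 of the 14554. For a limit of 80% these counts were 33 and 3, and for a limit of 5% they were 13 and 4.

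Across single sites, separation without overlap was far more often upward. All 3 double heterozygous adenomas lay above all 3 controls at 884 of the 14554 sites (6.07%), and below them at 191 (1.31%). The median difference was 8.22 points at the sites that were higher and -1.07 points at those that were lower. Differences of 10 points or more without overlap numbered 366 higher and 20 lower, and those of 20 points or more 62 higher and 4 lower. Adenoma 1 had the highest level at 375 of the 884 sites, adenoma 3 at 291 and adenoma 2 at 225, ties included. These sites were picked because all 3 adenomas lay above the controls, so the counts cannot show how evenly the shift is shared. At the 191 lower sites the shallow adenoma 3 had the lowest level at 138, adenoma 2 at 84 and adenoma 1 at 63, ties included.

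By class, 429 sites of 20 to 80% were higher and 21 lower (14.6% and 0.715% of the class). Among sites above 80% the counts were 223 and 42 (11.7% and 2.20% of the class). Sites of 5 to 20% gave 68 and 21 (5.82% and 1.80%), and sites below 5% gave 164 and 107 (1.92% and 1.25%). Without double heterozygous adenoma 3, 1694 of the same sites were higher (11.6%) and 351 lower (2.41%). Over the 22176 sites with 50 reads in those 5 libraries, 2429 were higher (11%) and 515 lower (2.32%). Without double heterozygous adenoma 1, 1327 were higher (9.12%) and 754 lower (5.18%). A group of 2 separates from 3 controls more easily than a group of 3, so these counts are larger than the ones over 6 adenomas, and the direction is what can be read from them. Higher sites outnumbered lower ones in the classes of 20 to 80% and above 80% under each of these omissions. In the lower classes leaving out adenoma 1 turned the balance. At 5 to 20% it became 116 higher and 157 lower (9.92% and 13.4% of the class). Below 5% it became 318 higher and 324 lower (3.72% and 3.79%).

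**Figure D3:**
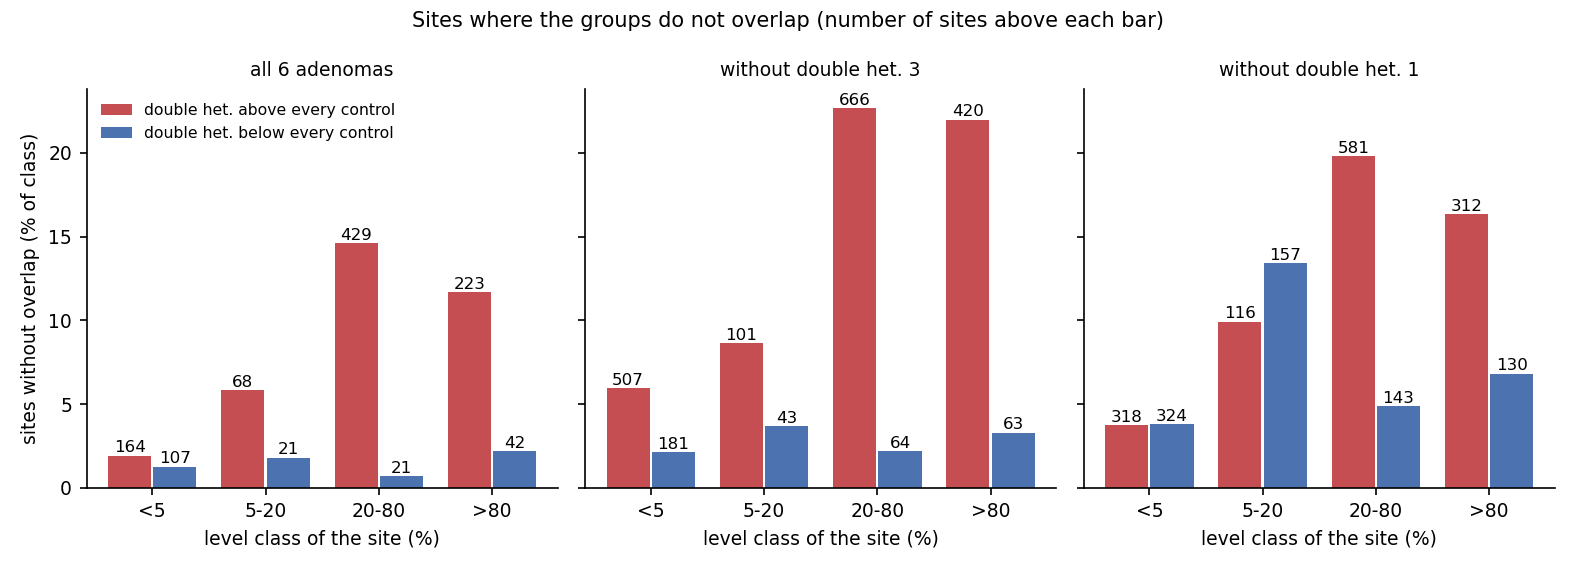
Percentage of the sites of each level class (horizontal axis) at which the groups did not overlap, with double heterozygous adenomas above (red) or below (blue) every control; numbers above bars are sites. In the class of 20 to 80%, 429 sites are above and 21 below over all 6 adenomas, and upward bars stay the taller in that class when adenoma 3 or adenoma 1 is left out.

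The shift was spread over the genome. Over the sites of 20 to 80%, the double heterozygous mean was above the control mean on 19 of 19 chromosomes, and the groups did not overlap on any of them. The differences ran from 3.81 points on chromosome 14 to 6.49 points on chromosome 4, with a median of 5.34 points. Each chromosome had more sites without overlap that were higher than lower, from 4.09% of its sites higher on chromosome 19 to 7.78% on chromosome 17. Chromosome 10, which carries Tet1 and Tdg in the mouse, had a difference of 5.80 points at sites of 20 to 80% and 6.15% of its sites higher. These values lay inside the range of the other chromosomes.

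**Figure D4:**
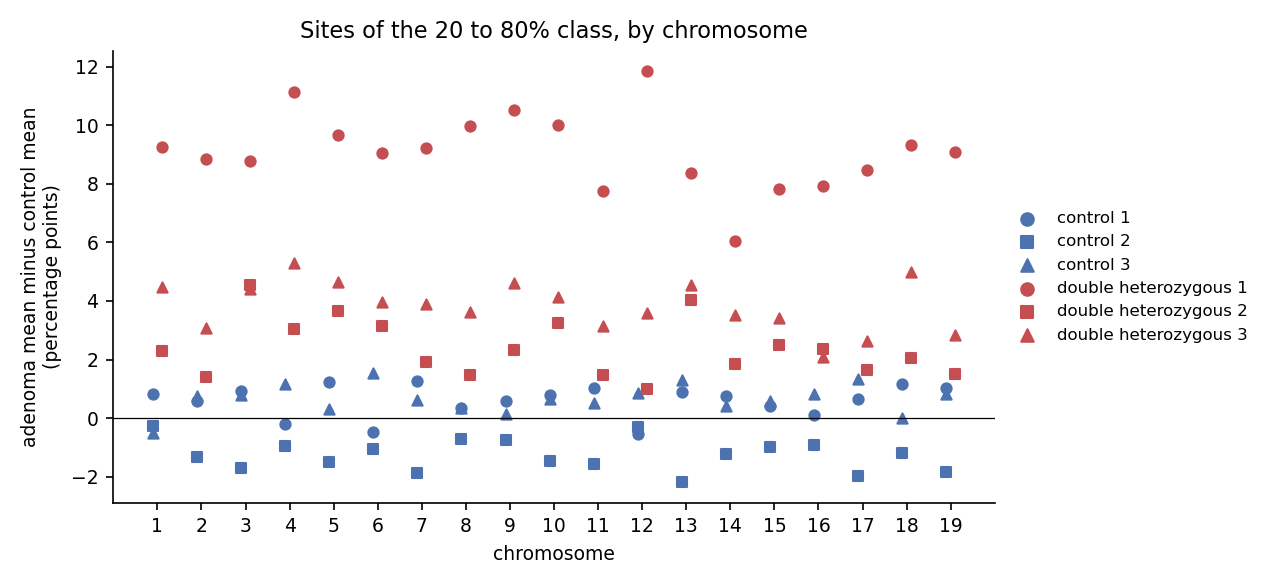
Mean level at sites of the 20 to 80% class on each chromosome, as each adenoma minus the control mean (percentage points); points are adenomas. The double heterozygous adenomas lie above the controls on 19 of 19 chromosomes, with adenoma 1 the highest on each.

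Sites with few CCCGGG neighbours carried most of the shift. At the 9583 sites with 0 or 1 other listed site within 500 bp, the double heterozygous mean was 2.00 points higher, and 740 of them (7.72%) lay above every control. At the 2155 sites with 3 or more such neighbours the difference was 0.105 points, and 43 (2.00%) lay above. Such crowded sites were mostly unmethylated: 2030 of the 2155 were in the class below 5%. Within the class of 20 to 80% the differences were 5.22 points for sites with 0 or 1 neighbour (2660 sites), 4.67 points with 2 (243 sites) and 2.48 points with 3 or more (33 sites). In that last set the groups overlapped, with double heterozygous adenoma 3 at 46.0% and control 3 at 46.6%.

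Tests of single sites found little. The methylated and unmethylated counts of the 11981 sites with reads of both states were tested with edgeR's quasi-likelihood test, and 1 site was higher in the double heterozygous adenomas at a Benjamini-Hochberg adjusted p under 0.05 (0.00835% of the sites) and 0 were lower (0%). At an unadjusted p under 0.05 (edgeR) there were 566 of the 11981 sites, 454 higher (3.79%) and 112 lower (0.935%). That total is no more than a limit of 0.05 passes when no site differs. Limma on the log2 ratio of the counts called 0 of the 11981 sites, with 238 of them at an unadjusted p under 0.05. The other 2573 sites had reads of 1 state alone and were left out; with them kept, 1 of 14554 sites was called.

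The called site lies on chromosome 9 at position 20673421 (mm9, as for all positions here). Sites are given by position, because no mm9 gene annotation was at hand and positions were not converted. Its level was 0.08%, 0% and 0.2% in the controls and 0.31%, 10.03% and 1.21% in the double heterozygous adenomas. The groups did not overlap, but the methylation was almost all in adenoma 2, with 142 methylated reads of 1448 (raw level 9.81%, exact interval 8.32% to 11.46%). Adenoma 3 had 1 methylated read of 90, which gives an exact interval from 0.0281% to 6.04%, and adenoma 1 had 4 of 1204. The fitted log2 odds ratio was 4.76 with an adjusted p of 0.031 (edgeR). Without adenoma 2 the adjusted p was 0.713, without adenoma 3 it was 0.169, and over the 17 alternatives fitted it ran from 3.5e-07 to 1. The neighbouring site at 20673177 stood at 0.08%, 0.06% and 0.2% in the controls and at 0.08%, 1.00% and 0% in the double heterozygous adenomas. In the other genotypes the called site reached 1.76% at most.

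The largest increases without overlap were at sites that were partly methylated in controls. None of the largest increases or decreases without overlap passed the adjusted threshold. At position 38244758 of chromosome 18, the controls stood at 17.6%, 28.0% and 40.9% and the double heterozygous adenomas at 63.7%, 65.7% and 62.5%. The double heterozygous adenomas were close together and all above the controls, by 35.1 points on average (edgeR adjusted p = 0.212). The neighbouring site at 38244977 did not share this: it had 31.3%, 40.3% and 20.6% in the double heterozygous adenomas, overlapping the controls.

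At position 82262520 of chromosome 11 the levels were 17.9%, 78.1% and 63.6% in the controls and 86.0%, 87.9% and 88.9% in the double heterozygous adenomas, a difference of 34.4 points (edgeR adjusted p = 0.205). Control 1, the male, was far below the other controls, and the double heterozygous adenomas were within 3 points of each other. The adenomas without Tet1 averaged 85.5% ± 2.09 at this site, also with little spread, and those with the Tdg allele alone 76.1% ± 14.9. At position 62952293 of chromosome 18 the controls stood at 29.2%, 76.0% and 52.5% and the double heterozygous adenomas at 89.6%, 88.0% and 77.4% (edgeR adjusted p = 0.205). The groups came close to touching there, with control 2 and double heterozygous adenoma 3 about a point apart. At position 128856519 of chromosome 7 the levels were 23.1%, 45.4% and 31.3% against 71.3%, 76.0% and 51.5%, and at position 141987586 of chromosome 4 they were 17%, 38.4% and 45.6% against 62.7%, 79.3% and 53.6%. The differences at these were 33.0 and 31.5 points (edgeR adjusted p = 0.388 and 0.399). In both, the shallow adenoma 3 was the lowest of the double heterozygous adenomas, with 79 and 68 reads.

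In the opposite direction, the site at position 63421095 of chromosome 15 was at 89.6%, 91.7% and 90.5% in the controls and at 71.3%, 48.9% and 79.2% in the double heterozygous adenomas. The controls were close together near 90% and the double heterozygous adenomas spread widely below them, by 24.1 points on average (edgeR adjusted p = 0.205). The other genotypes averaged 85.7% ± 4.09 without Tet1 and 88.1% ± 4.39 with the Tdg allele alone. At position 115073563 of chromosome 5 the levels were 86.6%, 89.9% and 90.2% in the controls and 64.8%, 59.4% and 77.8% in the double heterozygous adenomas, again with tight controls (edgeR adjusted p = 0.69). At position 107348818 of chromosome 4 the controls stood at 67.5%, 43.0% and 50.5% and the double heterozygous adenomas at 36.8%, 18.4% and 27.6%, a difference of -26.1 points (edgeR adjusted p = 0.699). Its neighbour at 107348365 went the other way, with means of 20.9% ± 7.35 in the controls and 33.6% ± 8.12 in the double heterozygous adenomas (SD, n = 3 each). Differences of -22.0 points at position 31665164 of chromosome 2 and of -19.0 points at position 64003377 of chromosome 13 completed the 5 largest decreases.

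**Figure D5:**
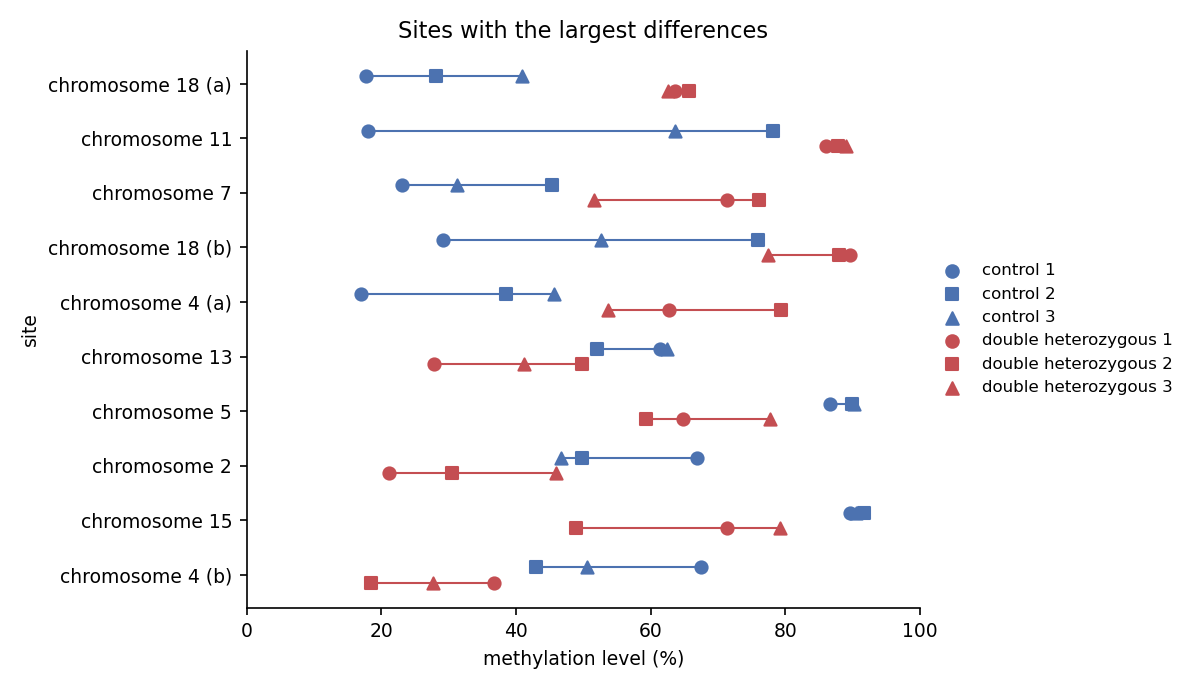
Methylation level (%) of each adenoma at the 5 sites with the largest increases and the 5 with the largest decreases among sites without overlap, ordered by difference; lines span the 3 adenomas of a group. The sites marked (a) and (b) on chromosome 18 are at positions 38244758 and 62952293, and those on chromosome 4 at 141987586 and 107348818.

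The remaining sites with the smallest p-values were nearly unmethylated, with the methylation in 1 or 2 adenomas. At position 103085727 of chromosome 15, double heterozygous adenoma 1 was at 8.67% and the other 5 adenomas between 0% and 0.37%. At position 108015332 of chromosome 6, double heterozygous adenomas 1 and 2 were at 5.32% and 1.76%, adenoma 3 was at 0% of 90 reads, and the controls were at 0.5% or less. At position 69949022 of chromosome 13 it was the shallow adenoma 3 that led, with 11.1% (13 of 126 reads, exact interval 5.61% to 17%), over 1.98% and 1.42% in the other double heterozygous adenomas and 0%, 1.07% and 0.13% in the controls. The neighbouring site at 69948683 had the same order, with 9.43% in adenoma 3. Adenoma 1 led at the first pair of these sites and adenoma 3 at the last. The edgeR adjusted p was 0.205 for all 3; over the alternatives fitted it went down to 0.00167, 0.0842 and 0.0231 in the order given and up to 1 for each. The site on chromosome 13 passed the threshold in 5 of 18 alternatives, the called site on chromosome 9 in 4 of 17.

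Among the nearly unmethylated sites that were lower, several had most of their methylation in a single control. At position 30559398 of chromosome 5, control 2 was at 21.4% and controls 1 and 3 at 2.1% and 0%, while all 3 double heterozygous adenomas were at 0% (edgeR adjusted p = 0.205). At position 45233188 of chromosome 19, control 1 was at 19.6% and the other controls at 3.51% and 2.97%, against 1.24%, 1.74% and 0.46% in the double heterozygous adenomas (edgeR adjusted p = 0.419). At position 111517495 of chromosome 12 the controls were at 8.04%, 2.07% and 12.8% and the double heterozygous adenomas at 1.14%, 1.24% and 2.72% (edgeR adjusted p = 0.413). Position 153636705 of chromosome 3 had a mean difference of -3.55 points with overlap. At position 60302350 of chromosome 19, control 2 was at 1.33%, controls 1 and 3 at 0% and 0.11%, and all 3 double heterozygous adenomas at 0%.

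Reads were also summed over 5297 runs of 2 or more sites with gaps of at most 500 bp, which raised the median depth of double heterozygous adenoma 3 to 246 reads. EdgeR called 0 of 5297 runs (0%). At an unadjusted p under 0.05 there were 273 of the 5297 runs, 223 higher and 50 lower. That total is about what a limit of 0.05 passes when no run differs. The groups did not overlap in 383 runs that were higher (7.23%) and 94 that were lower (1.77%). The runs with the smallest p included those of the sites on chromosomes 9, 13 and 18 described above, each with an adjusted p of 0.128. Over the run on chromosome 18, from 62951810 to 62952293, the controls stood at 47.4%, 73.2% and 67.3% and the double heterozygous adenomas at 91.1%, 84.8% and 80%. The run from 85997845 to 85998298 on chromosome 12 was similar, with 73.8%, 66.1% and 53.3% in the controls and 86.9%, 87.6% and 79.5% in the double heterozygous adenomas (edgeR adjusted p = 0.344). In both runs all double heterozygous adenomas were above all controls. The run from 34256686 to 34257087 on chromosome 17 rested on adenoma 1 alone, at 1.26% with the other 5 adenomas at 0% (edgeR adjusted p = 0.344). The 5 lower runs with the smallest p, on chromosomes 3, 4, 5, 12 and 13, had adjusted p from 0.552 to 0.636 and control means of 0.108% to 9.48%. Calls appeared when adenomas were left out: without double heterozygous adenoma 2, 11 runs were called (10 higher, 1 lower).

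Over the 2936 sites of 20 to 80%, the median SD was 8.13 points in the double heterozygous adenomas and 6.08 in the controls, with the larger SD on the double heterozygous side at 1776 sites. With the reads of all 6 adenomas thinned to 50 a site, which removes the difference in depth, the medians were 9.87 and 8.08 points. Double heterozygous adenomas 1 and 2 differed by 13.6 points on average at these sites, whereas control pairs differed by 7.70 to 10.2 points. Adenomas 2 and 3 differed by 9.29 points, within the range of the control pairs, and adenomas 1 and 3 by 10.8 points. Distances to the controls were much the same for adenoma 2 (9.35 to 10.3 points) and adenoma 3 (8.61 to 10.99 points). For adenoma 1 they were 12.8 to 14.9 points. At these sites adenomas 2 and 3 were thus about as far from the controls as from each other. At 79 of all 14554 sites adenoma 1 stood 20 points or more above all 5 others, against 11 sites for adenoma 2, 3 for adenoma 3 and 1 to 20 for the controls. The reverse, 20 points or more below all 5 others, held at 17, 33 and 7 sites for double heterozygous adenomas 1, 2 and 3, and at 55, 21 and 31 sites for controls 1, 2 and 3. Control 1 had the most such sites, and double heterozygous adenoma 2 had more of them than controls 2 and 3.

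Leaving out adenoma 1, whose levels stood apart, changed the single-site calls. EdgeR then called 27 sites, 22 higher and 5 lower, of which 9 were without overlap over all 6 adenomas. Of the 27, 6 lay within one stretch of chromosome 17, from 39981186 to 39985699. This stretch holds 8 of the 9 sites with 4000 or more reads in all 6 libraries, and took 2.84% to 3.997% of the reads of each of these libraries. At position 39985472, double heterozygous adenoma 2 had 177576 reads, against a median of 916 over all sites compared. Whether the reads of this stretch come from a single copy was not tested. Over the 8 sites the mean level was 19.8%, 19.7% and 21.1% in the controls and 16.1%, 26.3% and 28.0% in the double heterozygous adenomas. Adenoma 1 was below all 3 controls at 8 of 8 sites, and adenomas 2 and 3 were above all 3 controls at 8 of 8. The double heterozygous adenomas therefore fell on both sides of the controls, as those of the other genotypes did, with 17.5%, 25.2% and 15.9% without Tet1 and 23.7%, 31.4% and 19.1% with the Tdg allele alone.

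Compared with adenomas that had lost both alleles of Tet1, the double heterozygous adenomas were lower at 103 sites and higher at 0 (edgeR, all 12 adenomas in 1 fit, adjusted p under 0.05; 0.86% of the 11981 sites). The median level at these 103 sites was 26.5% without Tet1, 3.47% in the double heterozygous adenomas, 4.03% in the controls and 3.16% with the Tdg allele alone. All 3 double heterozygous adenomas were below all 3 adenomas without Tet1 at 103 of 103 sites; the sites were chosen by this contrast. Against the controls, the double heterozygous adenomas were above without overlap at 4 of 103 sites and below at 6 of 103. Over all 14554 sites these shares were 6.07% and 1.31%. The choice favoured sites with low double heterozygous values, which works against the first count and for the second. The counts can therefore not be read against the shares of all sites. At the 103 sites the double heterozygous mean was above the control mean in 53 cases and at or below it in the rest, under the same limit. The number of called sites was 49 without double heterozygous adenoma 3, 156 without adenoma 1, and 17 with limma.

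Against adenomas with the Tdg allele alone, edgeR called 0 of 11981 sites (0%), with 383 at an unadjusted p under 0.05. Limma also called 0, with 547 of the 11981 sites at an unadjusted p under 0.05. Mean levels over all sites were 23.0% ± 0.543 with the Tdg allele alone and 24.4% ± 1.59 without Tet1, beside 23.7% ± 1.15 in the double heterozygous adenomas (SD, n = 3 each). Without double heterozygous adenoma 1, 4 sites were called against the Tdg allele alone, and without the third adenoma of that genotype 8 were.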

How the data were processed

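Per the labels' protocols, adenoma DNA was spiked with methylation standards, cut with SmaI and then XmaI, and sequenced on an Illumina instrument. Per the submitters' processing notes, Trim Galore and Bowtie2 were used with mm9; the notes give no versions, and one protocol text names a rat genome instead. The deposited files hold, per site, the authors' counts of methylated and unmethylated reads, and a raw and an adjusted level in percent. The labels state a minimum of 100 reads, but the deposited files also list sites below it.

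From these, levels were averaged per adenoma (Python 3.11.15, pandas 2.3.3) and compared by exact two-sided permutation (numpy 2.4.6). Scipy 1.17.1 gave the adjustment over the level measures, the exact binomial intervals and the chi-square p-values. The count test was the quasi-likelihood test of edgeR 4.0.16, run in R 4.3.3 (1 depth term per adenoma, no dispersion trend, the 6 adenomas alone), with Benjamini-Hochberg adjustment over all tested sites and a threshold of 0.05. Limma 3.58.1 on the log2 ratio of the counts, with 2 added to each, was an alternative. The edgeR script was tested on simulated data. Named sites were every called site, the 6 with the smallest p in each direction and the 5 largest differences without overlap in each direction, at most 1 per run; named runs were the 5 with the smallest p in each direction. The compared groups, classes and rules were chosen with earlier results of these data known. Thinning to 50 reads, the omission of adenoma 1 from counts without overlap, and the sites of 4000 or more reads were chosen after seeing the data. No 2 adenomas of a genotype looked like 1 library: 25.5% to 45.5% of sites differed between them (chi-square p under 0.05). Sites on sex chromosomes were left out.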

Additional observations from a re-analysis of the deposited data

Results flagged for a closer look

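The double heterozygous and the Tet1-null adenomas differed at 103 sites in a direct test of that difference (edgeR, adjusted p under 0.05), all lower in the double heterozygous adenomas, with a median difference of -21.7 points.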

How the results depend on the processing

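Of the single-site calls against controls, 1 in the reported fit, 0 were made with 100 reads in all 6 files, with all 12 adenomas in 1 fit, with limma on the log2 ratio, with the quasi-binomial model, at mean levels of 5 to 95% and over the larger set of sites without double heterozygous adenoma 3. There were 15 with sex as a covariate (7 higher, 8 lower) and 10 with the male control alone (4 higher, 6 lower), an alternative chosen after seeing the data. Neither set held the called site, and both rest on control 1 as the only male control, assumed to vary like the others. Leaving out 1 adenoma gave 0 (control 1 or double heterozygous 3) to 27 sites (double heterozygous 1), with 2 without control 2 and 3 without double heterozygous 2. Runs called numbered 10 with sex as a covariate and 0 to 11 with 1 adenoma left out: 2 without control 2 or double heterozygous 1, and 1 without control 3. With the adenoma number as a replicate block 0 sites and 3 runs were called. Same-numbered adenomas had correlations of 0.113, 0.0306 and 0.297 of their deviations, the last the highest of any pair. Differently numbered pairs ran from -0.234 to 0.186. These values do not settle whether the numbers pair the adenomas, and they were not taken to do so. Against Tet1-null adenomas limma called 17 sites, the block 86, and omissions gave 49 to 156; against the Tdg allele alone omissions gave 0 to 8. The difference in the class of 5 to 20% reversed to -0.11 points without double heterozygous 1 (range over omissions -0.11 to 3.29). Over all sites, reads summed over the sites gave 1.535 points (exact permutation p = 0.3). For the class of 20 to 80% the omissions gave 3.11 to 6.54 points and reads summed over sites 3.89 points. The fitted log2 odds ratio at position 60302350 of chromosome 19 turned to 0.16 with sex as a covariate. Other causes of these shifts were not tested. Depth limits double heterozygous adenoma 3 most.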
